A study of Danio rerio with 12 samples.

Results

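The kidney marrow of zebrafish carrying a mutation in il2rga was compared with that of wild type zebrafish by sequencing poly(A) RNA. The comparison holds 6 of the 12 libraries of the series, 3 from il2rga mutants and 3 from wild type, and all 18370 of 32105 gene identifiers that had enough reads to be tested. The il2rga mutants carry the frameshift allele il2rga(Y91fs), as the series describes it. The labels of these libraries give the genotype alone, and the series names casper as the strain of the wild type animals used in its single-cell work. The other 6 libraries, 3 from prkdc(D3612fs) mutants and 3 from animals with both mutations, entered the same fit. They are used below to ask whether the same differences were seen when il2rga was lost on a prkdc mutant background. Every library stands for 1 animal, so the spread between libraries is that between animals. Sex, age and the time of dissection are not in the labels.

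The product of il2rga is the common gamma chain, a receptor subunit that several interleukins share, among them interleukins that mammalian T cells and natural killer cells need to develop and survive. The chain passes its signal through the kinase Jak3 to STAT transcription factors. In the zebrafish the kidney is both the organ that filters blood and the site where adult blood cells are made, so whole kidney marrow holds blood precursors, myeloid cells and lymphocytes among tubules, vessels and stroma. RNA of the whole organ was measured here, and fewer cells of a type cannot be told apart from less RNA in each of those cells.

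The targeted transcript followed the labels. As CPM, which are read counts scaled to a common library size, il2rga (ENSDARG00000068858) stood at 42.8, 38.0 and 61.4 in wild type 1 to 3 and at 4.83, 1.71 and 6.17 in il2rga mutant 1 to 3. All mutant animals were below all wild type animals, by 3.52 ± 0.44 on the log2 scale (edgeR, adjusted p = 0.00473, by the quasi-likelihood test and adjusted over all genes). Errors after log2 fold changes are standard errors of the fit, with n = 3 animals in each group. The transcript of prkdc, which is not targeted in these animals, was also lower. Wild type animals had 50.1, 54.1 and 62.8 CPM, the mutants 34.2, 32.4 and 22.1 CPM, a fall of 0.91 ± 0.21 (edgeR, adjusted p = 0.0339). This call was lost when any 1 of the wild type libraries, prkdc mutant 3 or il2rga mutant 2 or 3 was left out. A fit with the liver level as a covariate did not call it either.

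Total counts were 8234272 to 10311377 in wild type and 4756244 to 8907049 in il2rga mutants. Markers of the kidney and of its myeloid cells were abundant in both groups: the lysozyme gene lyz lay at 1409 CPM or more, and the sodium-chloride cotransporter slc12a3 of the distal tubule at 193 CPM or more, in all 6 libraries. Transcripts of other organs differed between animals. The mean of 32 liver genes was 1.65, 0.95 and 0.85 log2 CPM in wild type, and 4.72, 5.93 and 1.12 in il2rga mutant 1 to 3, so that mutants 1 and 2 stood high and mutant 3 lay inside the wild type range. Of the 32, 5 were called higher, against 2.22% of all genes tested, and 0 lower. The higher calls numbered 21 without il2rga mutant 3 and 0 when any 1 of the wild type libraries was left out. The list was also high in all 3 double mutants (4.35 to 6.99). The testis list was at 5.11 in il2rga mutant 2 and between -0.12 and 1.02 in the other 5 libraries, and the ovary list was at 2.62 and 2.19 in mutants 1 and 2 and at -0.73 in mutant 3, against -0.98 to 1.48 in wild type. On the first principal component of the 1000 most variable genes, which held 59.0% of their variance, il2rga mutant 3 (-34.6) lay among the wild type libraries (-52.9 to -16.8), and mutants 1 and 2 lay at 40.4 and 58.3. The part of these organ transcripts in the results below was not tested. Fits without those libraries, or with the liver level as a covariate, are given for the total and for several lists.

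In all, 1066 of the 18370 genes tested were called at an adjusted p under 0.05 (5.8%), 407 higher (2.22%) and 659 lower (3.59%) in il2rga mutants. The rises were mostly modest, with a median log2 fold change of 1.07 and 38 rises of 8-fold or more. The falls were larger, with a median of -1.39 and 84 falls of 8-fold or more. Over all genes tested the median was 0.057. The 2 groups did not overlap for 5614 of the 18370 genes (30.6%), with mutants higher for 2679 (14.6%) and lower for 2935 (16.0%). The number of genes called fell to 322, 342 and 160 when wild type 1, 2 or 3 was dropped, to 652 when prkdc mutant 3 was dropped, and to 656 and 295 when il2rga mutant 1 or 2 was dropped. A fit that held the liver level as a covariate called 14 genes, 12 of them among the 1066. The 4 most liver-rich libraries are il2rga mutants 1 and 2 and double mutants 1 and 2. Without them il2rga mutant 3 is the only il2rga mutant left, and only directions are read from that fit here. The direction of the change was kept by all 1066 with the covariate and by 1059 of the 1062 that could be tested without the 4 libraries.

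**Figure D1:**
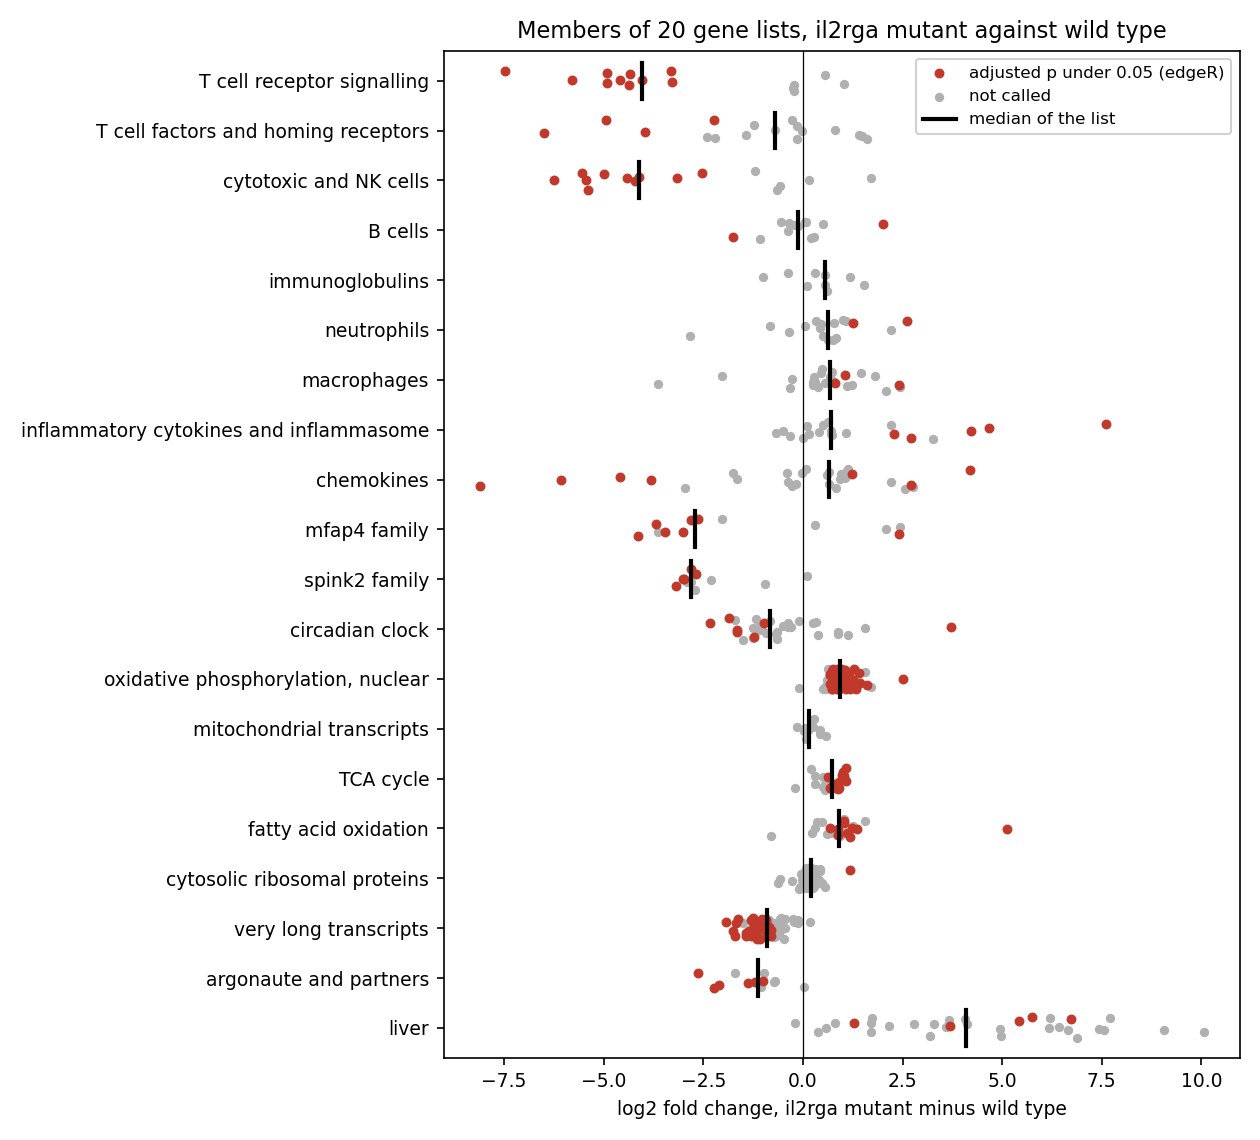
Log2 fold change of each tested member of 20 gene lists, il2rga mutant minus wild type. Each point is a gene, red where called by edgeR at an adjusted p under 0.05, and the black bar is the median of the list. T cell receptor signalling (median -4.04) and cytotoxic genes (median -4.11) lie far to the left, oxidative phosphorylation genes form a narrow band around 0.94, and very long transcripts lie around -0.91.

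Genes of T cell receptor signalling fell in il2rga mutants. Of 15 tested members 10 were lower, against 3.59% of all genes tested, and 0 higher. The median log2 fold change was -4.04, which is also the median when the gene without reads in the mutants is set at its bound. Members with few or no reads in the mutants were tested only because other groups had reads. With no filter 17 were tested, of which 9 were called lower and 0 higher, with a median of -3.46. The mean level of the list was 2.66, 2.50 and 3.38 log2 CPM in wild type and 0.47, 0.54 and 0.20 in il2rga mutants. The kinase txk, which acts beneath the receptor, stood at 3.74, 4.87 and 8.93 CPM in wild type and at 0.42, 0.214 and 0.213 CPM in the mutants, a fall of 4.35 ± 0.56 (edgeR, adjusted p = 0.00473). The adaptor lat went from 8.75, 4.63 and 12.5 CPM to 0.42, 0.214 and 0.213 CPM, a fall of 4.91 ± 0.63 (adjusted p = 0.00473 in edgeR). Every mutant animal lay far below every wild type animal for both genes, mutant 3 included.

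Markers of both main classes of T cell were low. The coreceptor of helper T cells, cd4-1, stood at 3.64, 4.14 and 11.5 CPM in wild type and at 0.21, 0.748 and 0 CPM in mutants, a fall of 4.04 ± 0.81 (edgeR, adjusted p = 0.0195). The coreceptor of killer T cells, cd8a, had 76 reads in wild type and 0 in all 3 mutants. It was at least 17.2-fold lower when 3 reads over the group are taken as the floor. Such bounds, and the intervals given with ratios below, cover counting error only. The receptor kinases zap70, lck and itk fell by 4.36 ± 0.73, 3.29 ± 0.69 and 4.93 ± 0.75, and themis, needed for T cell selection in mice, by 4.58 ± 0.80. The 5 members that were not called include ptpn22, a phosphatase of many blood cells, at 47.4 to 72.7 CPM in wild type and 43.6 to 58.1 CPM in mutants, and thy1, at 36.9, 45.8 and 77.8 CPM against 75.8, 82.9 and 167 CPM. The number of members called was 5 without wild type 3 and 6 without il2rga mutant 1. Without the 4 liver-rich libraries it was 0, with a median of -4.50.

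The transcription factors and homing receptors of T cells were less uniform, with 4 of 17 lower, 0 higher and a median of -0.71. Over all genes tested 3.59% were lower. The factor bcl11ba, whose mammalian counterpart holds T cells to their fate, had 1 read in mutants against 164 in wild type, a ratio of 112 (19.7 to 4433, 95% interval). The factor tcf7, which starts the T cell programme in mammals, stood at 9.64, 6.46 and 11.9 CPM in wild type and at 1.26, 0.214 and 0.425 CPM in mutants, a fall of 3.96 ± 0.57 (edgeR, adjusted p = 0.00668). The lymph node homing receptor ccr7 went from 14.7, 8.89 and 19.7 CPM to 0.21, 0.641 and 0.425 CPM, a fall of 4.95 ± 0.55 (adjusted p = 0.00285 in edgeR). satb1, a chromatin organiser of thymocytes, fell by 2.22 ± 0.51. Factors that other cell types also use did not pass: gata3 had a log2 fold change of 1.49 ± 0.51 and runx3 of -1.22 ± 0.40.

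Most killer cell genes that could be tested also fell. Of 15 cytotoxic and natural killer cell genes tested 10 were lower, against 3.59% of all genes tested, and 0 higher. A further 24 identifiers of that list had too few reads to be tested. Members with 0 to 3 reads in the mutants were tested only because other groups had reads. The median log2 fold change was -4.11, or -3.16 with the gene at 0 reads set at its bound. The mean level was 1.78, 1.81 and 2.28 log2 CPM in wild type against -0.23, -0.42 and -0.29 in mutants. With no filter 37 were tested, of which 11 were called lower and 0 higher, with a median of -3.19. The NK-lysins, small proteins that pierce membranes, were all low: nkl.2 and nkl.4 had 2 and 3 reads in the mutants, with ratios of 44.2 (11.997 to 369) and 55.6 (18.8 to 271), and nkl.3 fell by 4.11 ± 0.87. Among perforins, prf1.9 had 3 reads against 98, a ratio of 22.2 (7.38 to 109.6), and prf1.1 had 1 read against 58, a ratio of 39.5 (6.81 to 1585). The death ligand faslg had 0 reads in mutants and was at least 7.03-fold lower.

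The factor tbx21, which drives killer and type 1 helper cells, stood at 6.78, 5.85 and 12.4 CPM in wild type and at 1.47, 0.534 and 0.851 CPM in mutants, a fall of 3.16 ± 0.54 (edgeR, adjusted p = 0.0115). The granzyme gzma went from 2.85, 4.14 and 7.64 CPM to 0.21, 0.214 and 0.213 CPM, a fall of 4.43 ± 0.55 (adjusted p = 0.00473 in edgeR). nitr2b, a member of a receptor family that bony fish carry on immune cells, had 1 read against 79, a ratio of 53.7 (9.37 to 2149). Other copies in the same families were not called, such as prf1.5, prf1.6 and eomes, with log2 fold changes of -0.65 ± 0.53, 0.16 ± 0.71 and -0.58 ± 0.50. The reads of such near-identical copies may be split among them in the counting, so the share of each copy is uncertain. The number called was 2 without wild type 3, 3 without il2rga mutant 2 and 0 without the 4 liver-rich libraries, where the median was -4.19.

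**Figure D2:**
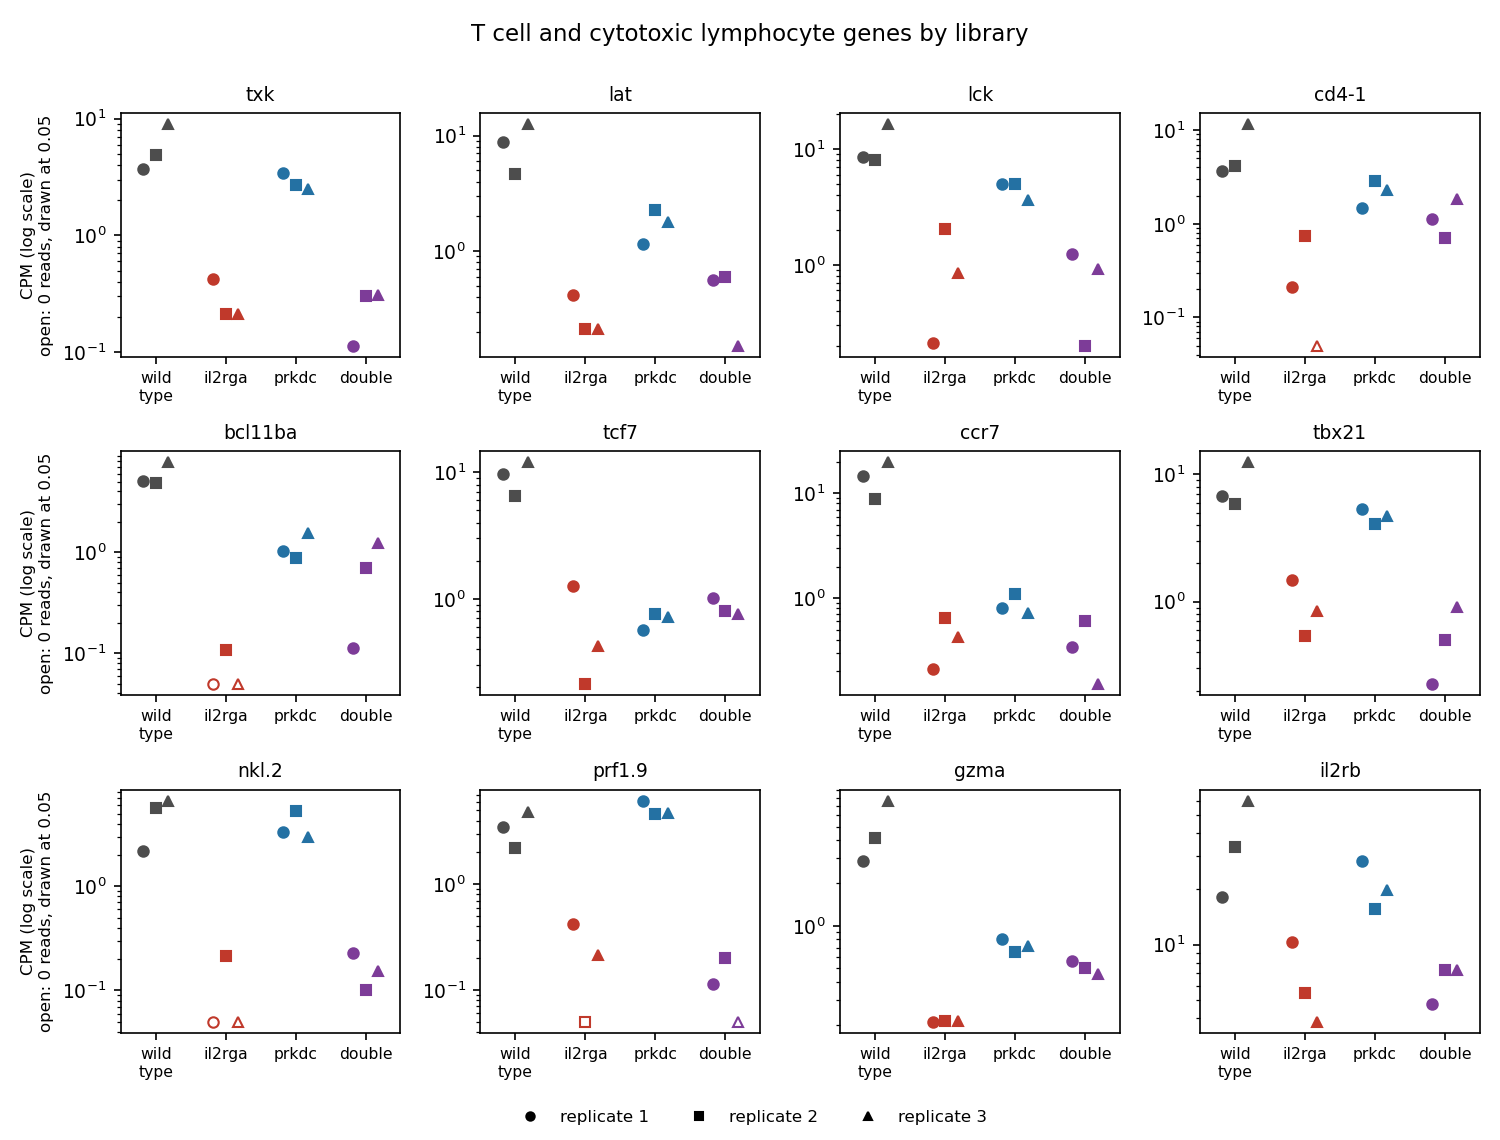
CPM on a log axis of 12 lymphocyte genes in each library of the 4 groups, with open symbols at 0.05 where a library had 0 reads. The il2rga mutants lie below all wild type libraries in every panel, for instance txk at 0.213 to 0.42 CPM against 3.74 to 8.93 CPM.

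Among the partners of the common gamma chain, its signalling partner il2rb was the other member that fell. It encodes the beta chain with which the gamma chain binds interleukin 2 and interleukin 15, and is itself a marker of killer cells. Its level was 18.2, 33.7 and 60.2 CPM in wild type and 10.29, 5.45 and 3.83 CPM in mutants, a fall of 2.52 ± 0.48 (edgeR, adjusted p = 0.016). The 2 groups did not overlap. The chain specific to interleukin 7, il7r, stood at 5.8, 4.14 and 7.86 CPM against 0.63, 2.14 and 0.851 CPM but did not pass (-2.21 ± 0.80, adjusted p = 0.121 in edgeR). The interleukin 4 receptor chain il4r.1, used beyond lymphocytes, had a log2 fold change of 0.34 ± 0.31. The second gamma chain gene of the fish, il2rgb, stood at 1.4 to 4.63 CPM in wild type and 1.17 to 3.57 CPM in mutants, with a log2 fold change of -0.43 ± 0.60. il2rb was no longer called without wild type 3 or without il2rga mutant 2.

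The genes that carry the signal onward were not lower as a group. Of 22 JAK and STAT pathway genes edgeR called 1 higher and 0 lower, with a median of -0.01. Over all genes tested the shares were 2.22% and 3.59%. Of the 22, 10 had an unadjusted p under 0.05 in edgeR. The DESeq2 Wald test called 5 higher and 3 lower, and limma voom 3 higher and 4 lower. The kinase jak3, which binds the gamma chain, stood at 44.9, 49.3 and 63.6 CPM in wild type and 59.9, 41.0 and 44.7 CPM in mutants, a log2 fold change of -0.12 ± 0.27. The feedback inhibitor socs3 (ENSDARG00000026611), which cytokines induce, was the member that edgeR called. It rose from 21.1, 21.7 and 28.7 CPM to 83.2, 88.1 and 178 CPM (2.28 ± 0.45, edgeR, adjusted p = 0.0181). Without the 4 liver-rich libraries, where il2rga mutant 3 is the only il2rga mutant left, its log2 fold change was 2.89. It was not called when any 1 of the wild type libraries was left out. The inhibitors cish and socs2 were high in mutants 1 and 2 and less so in mutant 3. cish stood at 4.82, 13.8 and 4.95 CPM in wild type and at 179.8, 132 and 38.1 CPM in mutants, and socs2 at 5.38 to 6.46 CPM against 141, 77.4 and 10.8 CPM, and neither passed (edgeR, adjusted p = 0.0618 and 0.0975).

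B cell genes moved little as groups. Of 13 B cell genes 1 was higher and 1 lower, with a median of -0.13, against 2.22% higher and 3.59% lower of all genes tested. Of 9 immunoglobulin genes 0 were called by edgeR, DESeq2 or limma voom, and 0 had an unadjusted p under 0.05. The immunoglobulin median was 0.55, but -0.40 by limma voom. Without the 4 liver-rich libraries it was 1.6995, over 18 of the 47 identifiers of the list rather than over 9. In that fit il2rga mutant 3 is the only il2rga mutant left. The inhibitory receptor cd22 rose from 8.16, 5.6 and 5.17 CPM to 18.7, 24.4 and 33.0 CPM (2.00 ± 0.49, edgeR, adjusted p = 0.0376). The early B cell factor gene ebf1 (ENSDARG00000099849) fell from 21.5, 18.03 and 54.8 CPM to 9.66, 6.62 and 11.7 CPM (-1.76 ± 0.43, edgeR, adjusted p = 0.0379). The heavy chain ighm stood at 53.4, 97.8 and 113 CPM in wild type and at 123, 48.8 and 591 CPM in mutants, so that mutant 3 alone was high and mutant 2 lowest of the 6. With the liver covariate ighm was called (2.67 ± 0.35, edgeR, adjusted p = 0.0482). The sign of the B cell median turned to 0.39 without the 4 liver-rich libraries. Neither cd22 nor ebf1 was called without wild type 1 or 3, prkdc mutant 3, any il2rga mutant or double mutant 2, and cd22 was not called without wild type 2.

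Chemokines split into genes that fell to near 0 and genes that rose. Of 29 chemokines tested 3 were higher and 4 lower, against 2.22% and 3.59% of all genes tested. cxcl32b.1 had 115 reads in wild type and 0 in mutants, at least 26.1-fold lower. ccl34b.4 went from 8.26, 14.01 and 25.6 CPM to 0.42, 0.107 and 0.213 CPM, a fall of 6.07 ± 0.84 (edgeR, adjusted p = 0.00584), and ccl33.3 from 11.2, 6.46 and 11.9 CPM to 0.21, 0.214 and 0.851 CPM, a fall of 4.60 ± 0.81 (adjusted p = 0.0129 in edgeR). All 3 mutants were low for each. The paralogue ccl34a.4 moved the other way, from 0.197, 0.609 and 0.646 CPM to 12.2, 8.33 and 6.59 CPM (4.20 ± 0.70, edgeR, adjusted p = 0.0108), and cxcl8b.1, a copy of the neutrophil attractant interleukin 8, rose by 2.71 ± 0.56. Of 20 chemokine receptors 2 fell, ccr7 and ccr8, and 2 rose, cxcr3.2 and ccr12b.2. ccr8, which in mammals marks subsets of T cells, stood at 10.4, 15.2 and 17.2 CPM in wild type and at 1.05, 0.427 and 0.851 CPM in mutants, a fall of 4.24 ± 0.50 (edgeR, adjusted p = 0.00416). Of the chemokine receptors only the 2 falls were called when any 1 of the wild type libraries or il2rga mutant 2 was left out. Of the 7 chemokines called, 4 were called without wild type 1 or 3 and 3 without il2rga mutant 2.

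Myeloid and inflammatory genes rose in part, with il2rga mutant 3 often highest. Of 17 neutrophil genes 2 were higher, of 25 macrophage genes 3 and of 20 inflammatory genes 5, against 2.22% of all genes tested. Each list had 0 lower, with medians of 0.63, 0.67 and 0.71. Among the 3 macrophage calls is mfap4 (ENSDARG00000090783), of a family described below, whose copies mfap4.6 to mfap4.11 fell and are not in this list. Other mfap4 copies in it went both ways without being called, such as ENSDARG00000038681 (-3.65 ± 1.61) and ENSDARG00000088745 (2.42 ± 0.78). The collagenase mmp13a stood at 252, 265 and 136 CPM in wild type and at 775, 1101 and 2116 CPM in mutants (2.61 ± 0.65, edgeR, adjusted p = 0.0433), and the NADPH oxidase subunit cyba at 66.8, 58.6 and 74.7 CPM against 114, 116 and 248 CPM (1.26 ± 0.32, adjusted p = 0.0435 in edgeR). For both genes all mutants were above all wild type animals. The complement gene c1qc, made by macrophages, rose by 1.05 ± 0.22, from 72.6, 71.1 and 89.97 CPM to 127, 159 and 197 CPM.

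The interleukin il11a had 0 reads in wild type and 55 in mutants, at least 27.0-fold higher. The inflammatory caspase caspb stood at 0.197, 1.58 and 0.753 CPM in wild type and at 31.3, 23.2 and 9.15 CPM in mutants (4.66 ± 1.03, edgeR, adjusted p = 0.0287). The interleukin il1b was at 0.861 to 1.1 CPM in wild type and at 2.31, 4.06 and 23.6 CPM in mutants, which did not pass (3.27 ± 0.95, adjusted p = 0.0646 in edgeR). Abundant granule genes lay in the same order without passing: lyz was at 1409, 1758 and 1585 CPM against 1996, 2640.2 and 4943 CPM, highest in mutant 3 (1.01 ± 0.32, adjusted p = 0.0821 in edgeR). The neutrophil and macrophage calls were all lost when any 1 of the wild type libraries or il2rga mutant 2 was left out. Dropping il2rga mutant 3 left 0 neutrophil and 1 macrophage calls, and dropping prkdc mutant 1 or double mutant 1 left 0 neutrophil calls. Of the inflammatory calls 0 of 5 were left without wild type 1 and 1 without wild type 2, wild type 3 or il2rga mutant 2. The gene il1b, not called in the main fit, was higher by 4.52 on the log2 scale without the 4 liver-rich libraries. In that fit il2rga mutant 3 is the only il2rga mutant left.

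At the class I locus the difference was between being nearly silent and abundant. The class I heavy chain gene mhc1uba stood at 5.6, 3.9 and 4.41 CPM in wild type and at 295, 366 and 649 CPM in the mutants, with no overlap (6.55 ± 1.402, edgeR, adjusted p = 0.028). It was at 2.88 to 4.25 CPM in the prkdc mutants, and at 335, 763 and 2.9 CPM in the double mutants, so that double mutant 3 was low and the others high. The neighbouring proteasome subunit psmb8 also varied between animals of a group, at 47.4, 22.05 and 0.108 CPM in wild type, 42.9, 63.7 and 141 CPM with the il2rga mutation alone and 0 CPM in all 3 prkdc mutants. Zebrafish are known to carry class I haplotypes that differ in gene content, and the haplotypes of these animals are not in the labels. Their part in these values was not tested. The lectin-like receptor illr3 was also near 0 without the il2rga mutation, and it was high in all 3 double mutants. It stood at 0.295, 0.244 and 0 CPM in wild type against 4.83, 22.3 and 19.6 CPM (6.32 ± 0.93, edgeR, adjusted p = 0.00748), with 0 to 0.327 CPM in prkdc mutants and 9.32 to 13.6 CPM in double mutants. Of 32 class I genes 3 were higher, against 2.22% of all genes tested, and 0 lower. In this list 0 were called when any 1 of the wild type libraries or il2rga mutant 2 was left out.

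Among blood precursor genes kit, the receptor for stem cell factor, was called lower, 1 of 13 against 3.59% of all genes tested. Its level was 29.5, 28.1 and 30.6 CPM in wild type and 14.9, 12.1 and 9.57 CPM in mutants, a fall of 1.27 ± 0.26 (edgeR, adjusted p = 0.0219). Leaving out any wild type library or il2rga mutant 2 or 3 ended the call. The other genes of this list, such as runx1 with -0.59 ± 0.42, did not pass. Of 19 erythroid, 11 thrombocyte, 24 interferon-stimulated and 29 DNA replication genes, edgeR called 0 in either direction, with 2, 2, 2 and 1 at an unadjusted p under 0.05. The DESeq2 Wald test called 2, 2, 0 and 1 of them, and limma voom 2, 2, 0 and 0.

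Nuclear genes of the respiratory chain rose together, and this was the largest block of calls among the lists. Of 83 tested 68 were higher, against 2.22% of all genes tested, and 0 lower. The median log2 fold change was 0.94, with a range of -0.11 to 2.52. The mean level of the list was 6.25, 6.26 and 6.10 log2 CPM in wild type and 7.30, 7.08 and 7.10 in il2rga mutants, all 3 above all wild type libraries. The rise was of like size in each complex: 30 of 39 complex I genes (median 0.93), 7 of 8 complex III genes (0.97), 14 of 18 complex IV genes (1.05) and 17 of 18 ATP synthase genes (0.91). The ATP synthase ring subunit atp5mc1 stood at 142, 208 and 176 CPM in wild type and at 457, 431 and 517 CPM in mutants (1.42 ± 0.19, edgeR, adjusted p = 0.00517). The cytochrome oxidase subunit cox6a1 (ENSDARG00000022438) went from 92.2, 108 and 102 CPM to 346, 222 and 249 CPM (1.43 ± 0.19, adjusted p = 0.00499 in edgeR), and the complex I subunit ndufb6 from 30.0, 36.3 and 35.3 CPM to 92.9, 79.2 and 74.0 CPM (1.28 ± 0.16, adjusted p = 0.00473 in edgeR). None of these groups overlapped, which held, with mutants higher, for 14.6% of all genes tested.

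The 13 subunits that mitochondria encode themselves did not follow. Of these, edgeR called 0, with 1 at an unadjusted p under 0.05, the DESeq2 Wald test called 1 and limma voom 0, and the median was 0.15. The most abundant, mt-co1, stood at 5889, 8494 and 6494 CPM in wild type and at 5999.6, 6679 and 8968 CPM in mutants. Cytosolic ribosomal proteins had a median of 0.20, with 1 of 77 higher, against 2.22% of all genes tested. That member, rps27l, is a variant that p53 induces in mammals, and it was not called without wild type 2 or 3. Fuel pathways of the mitochondrion moved with the respiratory chain: 13 of 22 genes of the tricarboxylic acid cycle and 11 of 22 of fatty acid oxidation were higher and 0 lower, with medians of 0.72 and 0.91. The cycle enzyme idh2 stood at 278, 275 and 282 CPM in wild type and at 727, 567 and 479.9 CPM in mutants (1.08 ± 0.19, edgeR, adjusted p = 0.0129), and cpt2, which brings fatty acids into the matrix, at 39.2, 36.1 and 37.6 CPM against 74.4, 89.7 and 67.0 CPM (1.03 ± 0.20, adjusted p = 0.016 in edgeR). Mitochondrial ribosome proteins rose in 8 of 73, with a median of 0.47, and the proton pump in 6 of 21, against the same 2.22%. Neither list kept a call when any 1 of the wild type libraries was left out. These pathways, and the others named as drawn up later, were put together after the called genes had been seen.

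Glycolysis, also in a list drawn up later, had 4 of 26 genes higher, against 2.22% of all genes tested, and 0 lower. It had 0 called when any 1 of the wild type libraries was left out. Its member aldoc (ENSDARG00000019702), an aldolase, stood at 109.6, 109 and 108 CPM in wild type and at 191, 212 and 554 CPM in mutants, highest in mutant 3 (1.55 ± 0.34, edgeR, adjusted p = 0.0276). Myoglobin, mb, which binds oxygen, was among the most abundant genes that rose. It stood at 448, 381 and 465 CPM in wild type and at 1441, 2191 and 1507 CPM in mutants, without overlap (1.99 ± 0.24, edgeR, adjusted p = 0.00473). The call of mb held with the liver level in the fit (1.64 ± 0.24, edgeR, adjusted p = 0.0482), and so did those of aldoc, at 2.07 ± 0.27, and atp5mc1, at 1.59 ± 0.22.

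How many respiratory chain genes passed depended on the wild type animals left in the fit, while the median rise lay between 0.84 and 1.01 in all alternatives run. The count was 37, 30 and 11 of 83 after dropping wild type 1, 2 and 3, against 49 to 69 without any other library. With the liver covariate 1 of 83 passed, with a median of 0.86, and without the 4 liver-rich libraries 0 passed, with a median of 0.86. For the tricarboxylic acid cycle the counts were 2, 2 and 1 after dropping wild type 1, 2 and 3 and 7 and 5 without il2rga mutant 1 and 2. For fatty acid oxidation they were 2, 0 and 0 after dropping wild type 1, 2 and 3, 6 after dropping prkdc mutant 3, and 2 and 0 when il2rga mutant 1 or 2 was dropped. With the liver covariate 0 genes were called in the tricarboxylic acid cycle (median 0.66) and 0 in fatty acid oxidation (median 0.56). Without the 4 liver-rich libraries the medians were 0.58 and 0.56.

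**Figure D3:**
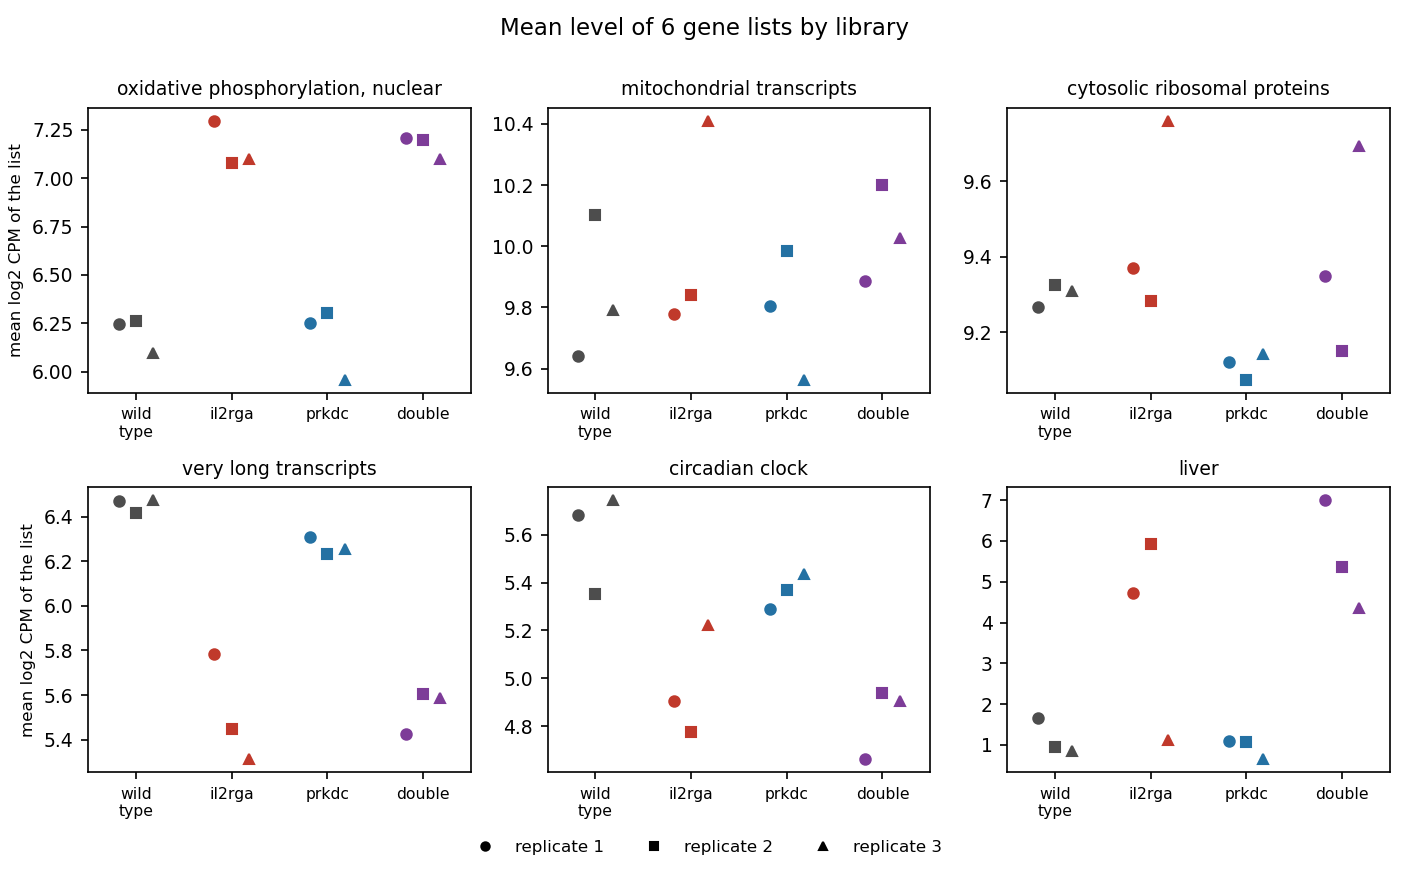
Mean log2 CPM over the tested members of 6 gene lists in each library, by group. The respiratory chain list lies at 7.08 to 7.30 in the 3 il2rga mutants against 6.10 to 6.26 in wild type, the very long list at 5.31 to 5.78 against 6.42 to 6.47, and the liver list is high in il2rga mutants 1 and 2 and not in 3.

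Very long transcripts fell in part. Of 68 genes picked for their length across unrelated functions, with such falls already known, 32 were lower, against 3.59% of all genes tested. The median was -0.91, with 0 higher. The mean level was 6.47, 6.42 and 6.47 log2 CPM in wild type and 5.78, 5.45 and 5.31 in mutants, lowest in mutant 3. ankrd11, a chromatin regulator, stood at 171, 159 and 179 CPM in wild type and at 54.6, 59.6 and 50.8 CPM in mutants (-1.62 ± 0.17, edgeR, adjusted p = 0.00285). ahnak, a giant scaffold protein, stood at 483, 511 and 605 CPM against 167, 152 and 155 CPM (-1.75 ± 0.30, adjusted p = 0.0114 in edgeR), and kmt2a, a histone methyltransferase, at 144, 169 and 201 CPM against 66.8, 51.2 and 41.1 CPM (-1.69 ± 0.24, adjusted p = 0.00591 in edgeR). The part of RNA integrity was not tested, since the files hold no measure of it. The count was 21, 19 and 11 after dropping wild type 1, 2 and 3, 13 without il2rga mutant 2, and 0 with a median of -1.16 without the 4 liver-rich libraries.

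Several families of gene regulators fell with them, in lists drawn up later. Of 48 histone methyltransferases, acetyltransferases and bromodomain proteins 19 were lower, against 3.59% of all genes tested, and 0 higher, with a median of -0.67. Of these, 9 are also in the very long list, and among the other 39 there were 12 lower, with a median of -0.54. The part of transcript length in the falls of these regulator lists was not tested. The acetyltransferase kat6a stood at 172, 165 and 174 CPM in wild type and at 76.1, 73.2 and 68.9 CPM in mutants, a fall of 1.23 ± 0.14 (edgeR, adjusted p = 0.00362). In DNA methylation 5 of 9 genes were lower: both copies of dnmt3a, which methylate DNA anew, and tet1, tet2 and tet3, which oxidise the mark. tet1 fell by 1.54 ± 0.29, from 17.0, 18.6 and 16.6 CPM to 8.61, 4.7 and 4.68 CPM. The maintenance enzyme dnmt1 stood at 127, 213 and 213 CPM against 161, 162 and 228 CPM (-0.01 ± 0.37).

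Argonautes and their partners, which carry microRNAs to their targets, were lower in 6 of 12 genes, against 3.59% of all genes tested. The median was -1.13, with 0 higher. The helicase ddx6, which represses and decaps messages bound by microRNAs, stood at 112, 153 and 142 CPM in wild type and at 15.3, 24.5 and 25.7 CPM in mutants. That fall of 2.63 ± 0.26 (edgeR, adjusted p = 0.00285) held with the liver covariate (-2.66 ± 0.35, adjusted p = 0.0482 in edgeR). ago2, the argonaute that cuts its target, went from 56.0, 96.5 and 70.17 CPM to 19.3, 15.9 and 16.8 CPM, a fall of 2.098 ± 0.33 (edgeR, adjusted p = 0.00963). The scaffold tnrc6a and ago4 fell by 1.38 ± 0.22 and 1.198 ± 0.16, and dicer1, which cuts microRNA precursors, by 1.01 ± 0.26. The nuclear enzyme drosha had 0.03 ± 0.25 and was not called. For this list no single library changed the count by more than 1.5 times. With the liver covariate 1 of 12 was called, with a median of -1.24, and without the 4 liver-rich libraries the median was -1.52. For the histone list the count was 11, 12 and 8 after dropping wild type 1, 2 and 3 and 9 without il2rga mutant 2, and for DNA methylation 0 to 3 without any of the wild type libraries, prkdc mutant 3 or any il2rga mutant. With the liver covariate 0 DNA methylation genes were called, with a median of -0.63, and without the 4 liver-rich libraries their median was -0.80.

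Members of 3 paralogue families, in lists drawn up later, fell in il2rga mutants by several fold. Among 12 genes of the mfap4 family, whose products are secreted fibrinogen-like proteins, mfap4.6 to mfap4.11 were lower and 1 other copy was higher. Over all genes tested 3.59% were lower and 2.22% higher. mfap4.8 stood at 445, 207 and 112 CPM in wild type and at 36.8, 15.1 and 7.45 CPM in mutants, a fall of 3.69 ± 0.69 (edgeR, adjusted p = 0.016). mfap4.6 went from 353, 98.7 and 195 CPM to 19.7, 10.8 and 6.17 CPM, a fall of 4.14 ± 0.83 (adjusted p = 0.0217 in edgeR). The copy mfap4 (ENSDARG00000090783) went the other way, from 20.9, 16.4 and 16.0 CPM to 30.0, 60.1 and 197 CPM (2.42 ± 0.60, edgeR, adjusted p = 0.0421). Mutant 3 was lowest for mfap4.6 and mfap4.8 and highest for the copy that rose.

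The spink2 family, genes for Kazal-type protease inhibitors, had 5 of 11 lower, against 3.59% of all genes tested, and 0 higher. Its median was -2.80. spink2.9 stood at 311, 232 and 109 CPM in wild type and at 47.3, 12.5 and 12.1 CPM in mutants, a fall of 3.19 ± 0.67 (edgeR, adjusted p = 0.0254), and spink2.2 at 360.0, 164 and 89.2 CPM against 44.8, 19.9 and 11.5 CPM (-3.01 ± 0.60, adjusted p = 0.0208 in edgeR). In the complement C3 family, c3a.4 and c3a.5 fell while c3a.1, c3a.2 and c3a.3, which were high in the liver-rich mutants, did not pass. c3a.4 stood at 616, 459.6 and 201 CPM in wild type and at 59.9, 10.04 and 12.98 CPM in mutants, a fall of 3.95 ± 0.77 (edgeR, adjusted p = 0.0191). c3a.1 stood at 5.17 to 8.16 CPM against 232, 376 and 29.4 CPM (4.99 ± 1.29, adjusted p = 0.0512 in edgeR). The wild type animals themselves spread widely for mfap4.8, spink2.2 and c3a.4, with wild type 1 highest and wild type 3 lowest.

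The prkdc mutants overlapped the il2rga mutants in part for mfap4.8 and spink2.9, and wild type in part for c3a.4. Every prkdc mutant lay below every wild type animal for mfap4.8 and spink2.9, and every double mutant did for mfap4.8 and c3a.4. The double mutants overlapped the il2rga mutants in part for c3a.4, and wild type in part for spink2.9. mfap4.8 was at 106, 33.3 and 70.8 CPM in prkdc mutants and at 80.8, 63.7 and 103 CPM in double mutants, spink2.9 at 87.9, 27.6 and 62.4 CPM and 101, 47.5 and 118 CPM, and c3a.4 at 203, 73.0 and 148 CPM and 55.1, 47.1 and 106 CPM. Double mutants did not differ from prkdc mutants by a called amount for any of them, with log2 fold changes of 0.24 ± 0.69, 0.58 ± 0.67 and -1.03 ± 0.76 and no interaction called (edgeR, adjusted p = 0.788 for each). Reads of these near-identical copies may have been split among them. The c3a calls numbered 1 without wild type 1 or 2 or il2rga mutant 2, and 5, 5 and 4 without il2rga mutant 3, double mutant 1 and double mutant 3. The calls of mfap4 copies numbered 0 without il2rga mutant 2 and 1 without wild type 1 or il2rga mutant 3, 3 without wild type 2, and 4 without wild type 3 or prkdc mutant 3. Those of spink2 copies numbered 0 to 2 when any 1 of the wild type libraries, prkdc mutant 3 or il2rga mutants 2 or 3 was left out.

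**Figure D4:**
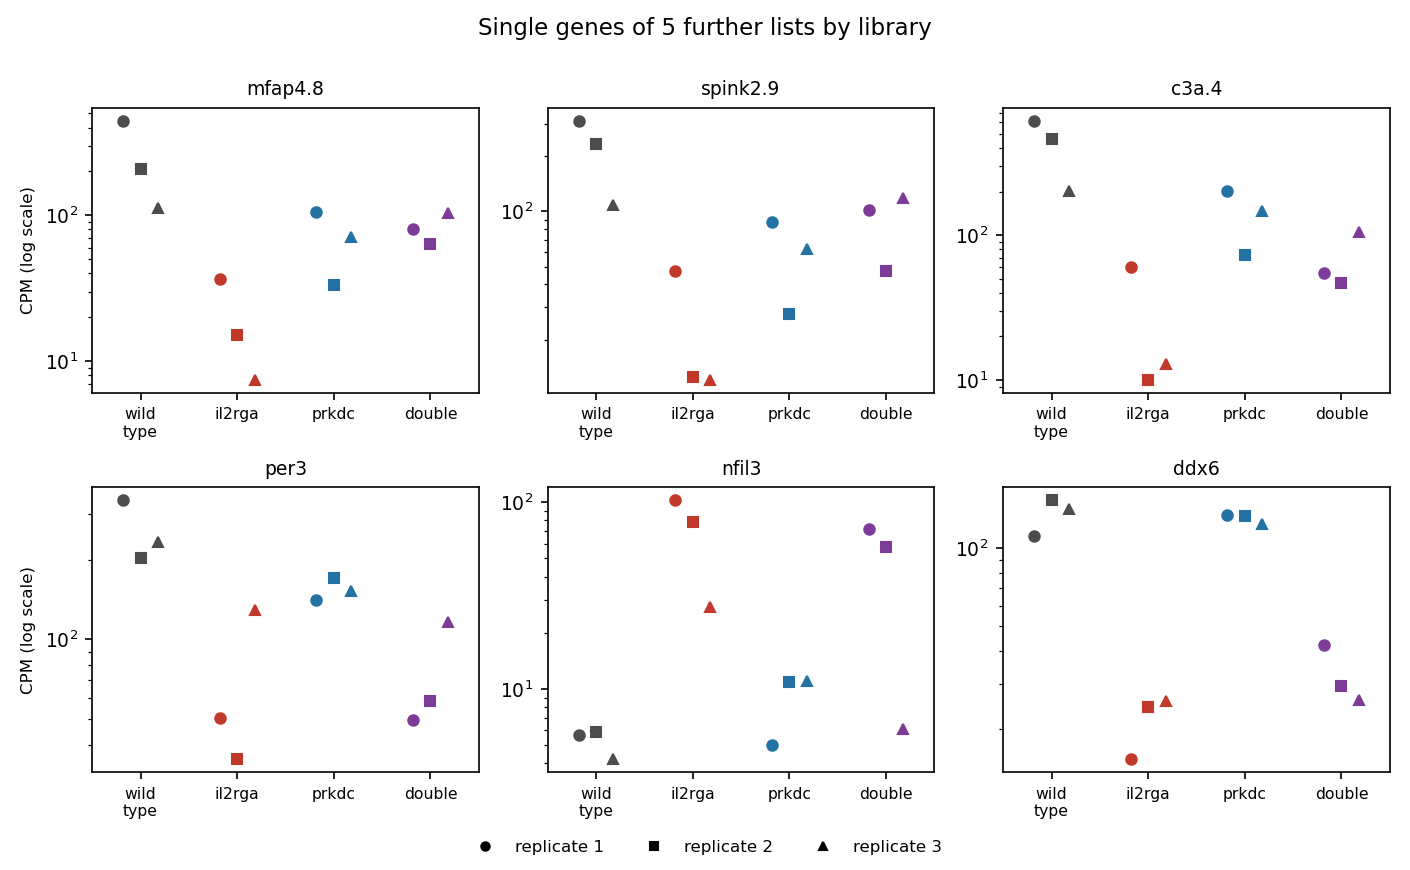
CPM on a log axis of 6 genes in each library, by group. mfap4.8, spink2.9 and c3a.4 lie below all wild type libraries in the il2rga mutants, per3 and nfil3 set il2rga mutants 1 and 2 furthest from wild type, and ddx6 is low in both groups with the il2rga mutation (15.3 to 42.5 CPM) and high in the others.

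Genes of the circadian clock differed between the groups, again in a list drawn up later. Of 33 tested 6 were lower and 1 higher, against 3.59% and 2.22% of all genes tested, with a median of -0.82. With the liver covariate 0 were called by edgeR and the median was -0.44, and without the 4 liver-rich libraries 0 were called and it was -0.38. The period gene per3, which represses the clock, stood at 336, 204 and 234 CPM in wild type and at 50.2, 35.14 and 129 CPM in mutants (-1.86 ± 0.47, edgeR, adjusted p = 0.0425). nfil3, which represses the same targets that the dbp and tef factors activate, stood at 5.7, 5.85 and 4.2 CPM against 102, 78.0 and 27.4 CPM (3.72 ± 0.80, adjusted p = 0.0272 in edgeR). Both groups were apart, and mutant 3 lay nearer to wild type than mutants 1 and 2 for both genes. rora, a clock activator, fell in all 3 mutants to a like level, from 13.4, 10.8 and 18.4 CPM to 1.89, 3.1 and 3.4 CPM (-2.33 ± 0.34, edgeR, adjusted p = 0.00722), and dbpa, dbpb, tefb and nr1d2a fell by 1.66 ± 0.40, 1.66 ± 0.42, 1.23 ± 0.30 and 0.98 ± 0.25.

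Other clock genes separated mutants 1 and 2 from the rest. per1 (ENSDARG00000012499) stood at 183, 185 and 203 CPM in wild type and at 30.3, 20.1 and 125 CPM in the mutants, and at 26.7, 36.3 and 95.2 CPM in double mutants, which did not pass (-1.70 ± 0.64, edgeR, adjusted p = 0.136). The clock activator bmal1 (ENSDARG00000006791) was opposite, at 6.88, 7.43 and 9.79 CPM against 31.1, 28.0 and 11.9 CPM (1.56 ± 0.44, adjusted p = 0.0584 in edgeR). The libraries with low per1 and high bmal1 were also those rich in liver transcripts. The hour at which each animal was dissected is not in the labels, and its part was not tested. The number of clock genes called was 1 without wild type 1, 2 or 3 or il2rga mutant 2, 3 after dropping prkdc mutant 3, 2 without il2rga mutant 1, and 12 without il2rga mutant 3.

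Calls by edgeR among genes of the kidney itself are set beside 2.22% higher and 3.59% lower over all genes tested. Of 15 podocyte and multiciliated cell genes 1 was lower, and of 18 endothelial genes 2 were higher. Both lists had 0 called when any 1 of the wild type libraries was left out. Of 16 distal nephron genes 2 were higher and 0 lower. slc12a3, the salt cotransporter that thiazides block, stood at 394, 193 and 296 CPM in wild type and at 1043, 1028 and 620.3 CPM in mutants (1.61 ± 0.37, edgeR, adjusted p = 0.0301). atp1a1a.4, a sodium pump subunit, went from 1363, 1546 and 1315 CPM to 3375, 3002 and 2316 CPM (1.04 ± 0.18, adjusted p = 0.0128 in edgeR). All mutants exceeded all wild type animals for both. Of 26 proximal tubule genes 1 was higher, against 2 higher and 3 lower by the DESeq2 Wald test and 3 higher and 7 lower by limma voom. That call was lost without any of wild type 1, 2 and 3, prkdc mutant 3 or il2rga mutant 1, and 2 others were then called lower in the last case. The level of that list was 7.84 to 8.32 log2 CPM in wild type and 7.40 to 8.08 in mutants. In the stroma the basement membrane chains col4a1 and col4a2 fell, the first from 266, 191 and 287 CPM to 124, 102 and 99.6 CPM (-1.197 ± 0.23, edgeR, adjusted p = 0.016), with 2 of 19 lower in all. The niche chemokine cxcl12, at 2462 to 3679 CPM in wild type and 1889 to 2984 CPM in mutants, was not called. The distal nephron calls were both lost without wild type 1 or 3, and 1 was left without wild type 2 or il2rga mutant 1 or 2. Without the 4 liver-rich libraries 0 were called and the median of 0.31 became 0.05. The collagen calls were lost without wild type 1 or 3 or il2rga mutants 2 or 3.

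Most called genes lay outside these lists: of the 407 that rose 150 were list members, and of the 659 that fell 112. Among the most abundant were the actin-binding peptide gene tmsb4x, at 1333, 1218 and 1388 CPM in wild type and 1818, 2004 and 3065 CPM in mutants (0.81 ± 0.20, edgeR, adjusted p = 0.0377), and the mitochondrial ADP/ATP carrier slc25a5, at 3101, 2885 and 2923 CPM against 4631, 4919 and 4243 CPM (0.63 ± 0.14, adjusted p = 0.0263 in edgeR). Among abundant falls, the RNA-binding protein rbm47 went from 1198, 873 and 703 CPM to 284, 324 and 281 CPM, a fall of 1.64 ± 0.36 (edgeR, adjusted p = 0.0263). The RNA helicase ddx3xa fell from 402, 489.8 and 432 CPM to 195, 198 and 265 CPM, by 1.01 ± 0.23 (adjusted p = 0.0326 in edgeR). Factors of the immediate early response moved both ways. junb (ENSDARG00000104773) rose from 16.5 to 19.3 CPM in wild type to 59.5 to 88.5 CPM in mutants (1.97 ± 0.37). It was not called when any 1 of the wild type libraries was left out. The other junb gene (ENSDARG00000074378) did not pass (1.55 ± 0.44, edgeR, adjusted p = 0.0598). jund fell from 29.8 to 55.3 CPM to 7.35 to 10.4 CPM (-2.17 ± 0.34). The ms4a17 family of membrane proteins, in a list drawn up later, moved both ways too. It had 3 of 10 higher and 1 lower, against 2.22% and 3.59% of all genes tested. Its member ms4a17c.1 had 60 reads in wild type and 0 in mutants, at least 13.6-fold lower, and no member of the family was called when any 1 of the wild type libraries or il2rga mutant 2 was left out.

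The loss of il2rga was then read on a second background, in double mutants against prkdc mutants, which share no library with the comparison of il2rga mutants and wild type. Here 2717 of 18370 genes were called (14.8%), 1456 higher (7.93%) and 1261 lower (6.86%). Of the 407 genes that rose in il2rga mutants, 390 (95.8%) had the same sign on the prkdc background and 235 (57.7%) were called there. Of the 659 that fell, 640 (97.1%) had the same sign and 448 (68.0%) were called. Over all genes tested 74.3% shared their sign. The 4 liver-rich libraries are il2rga mutants 1 and 2 and double mutants 1 and 2, and the liver list had 4.35 to 6.99 log2 CPM in double mutants against 0.65 to 1.08 in prkdc mutants. Without those 4 libraries, or with the liver covariate, 0 genes were called on the prkdc background by edgeR.

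**Figure D5:**
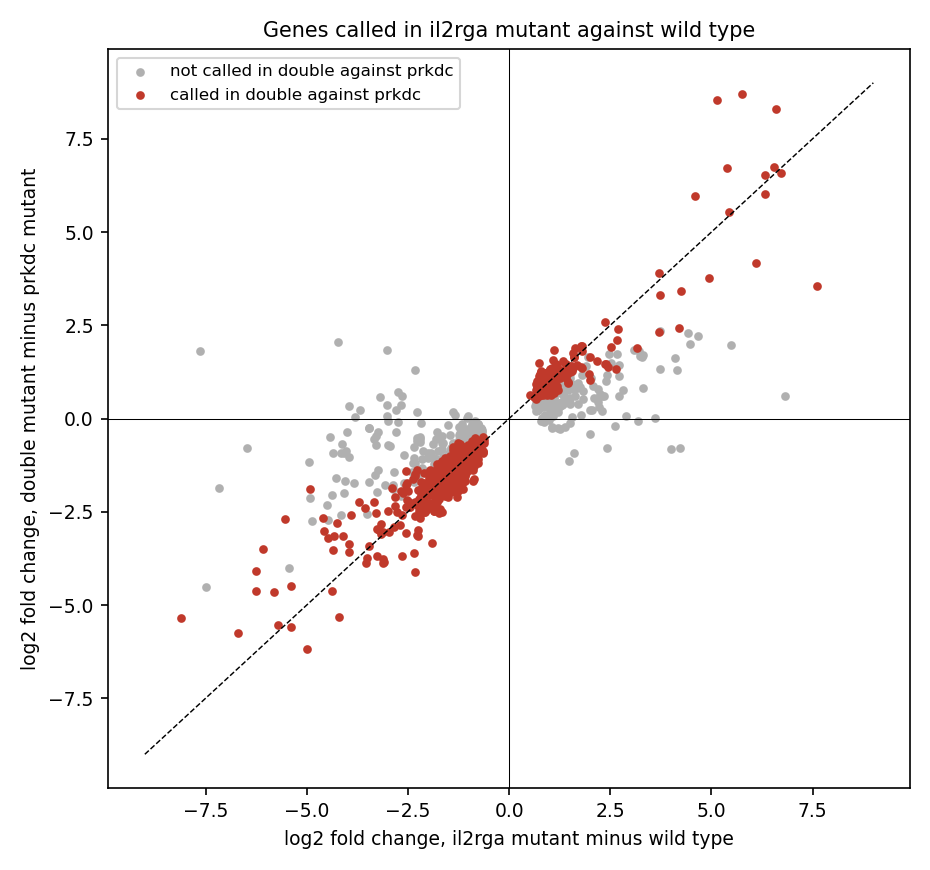
Log2 fold change of the 1066 genes called in il2rga mutants against wild type (horizontal) and of the same genes in double against prkdc mutants (vertical), with the dashed line marking equal values. Red points were called in both, and 390 of 407 rises and 640 of 659 falls keep their sign.

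By group, the respiratory chain rose as far on the prkdc background, with 78 of 83 higher and medians of 0.93, 1.02, 1.05 and 0.94 for complexes I, III, IV and ATP synthase. Very long transcripts had 29 of 68 lower and 1 higher there. Killer cell genes also fell again, with 8 of 15 lower and 1 higher: nkl.2 stood at 3.32, 5.35 and 3.0 CPM in prkdc mutants and at 0.227, 0.1 and 0.153 CPM in double mutants (-4.49 ± 0.73, edgeR, adjusted p = 0.00805), and tbx21 at 5.38, 4.04 and 4.68 CPM against 0.227, 0.5 and 0.916 CPM (-3.11 ± 0.55, adjusted p = 0.01 in edgeR). Of the T cell receptor list 5 of 15 were lower. txk fell from 3.43, 2.73 and 2.52 CPM to 0.114, 0.3 and 0.305 CPM (-3.52 ± 0.54, edgeR, adjusted p = 0.00681). The homing receptor ccr7 and the factor tcf7 were already low in prkdc mutants, at 0.72 to 1.09 CPM and 0.572 to 0.764 CPM, and were not called between them and double mutants (-1.16 ± 0.54 and 0.33 ± 0.55, edgeR, adjusted p = 0.163 and 0.708). Lists of myeloid, inflammatory and glycolysis genes had smaller medians on the prkdc background than in il2rga mutants against wild type. For neutrophil genes the median was -0.21 (1 higher, 1 lower), and for macrophage genes 0.12 (1 higher, 2 lower). For inflammatory genes it was -0.18 (3 higher, 1 lower), and for glycolysis genes 0.13 (3 higher, 0 lower). Other lists had larger medians on the prkdc background. DNA replication genes had 1.32 against 0.34, with 15 of 29 higher, where 7.93% of all genes tested were higher. Mitochondrial ribosome genes had 0.83 against 0.47 (47 of 73 higher), and liver genes 6.35 against 4.09 (21 of 32 higher).

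The il2rga mutants were also set against the prkdc mutants, a comparison that shares the il2rga libraries with the first. It called 1244 genes (6.77%), 3.1% higher and 3.67% lower. Respiratory chain genes were higher in 73 of 83 (median 0.96), very long transcripts lower in 27 of 68, and killer cell genes lower in 6 of 15 with 1 higher. Of the mfap4 and spink2 copies 0 were called in that comparison by edgeR, with medians of -0.94 and -1.88.

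Whether the 2 backgrounds differed was tested by the interaction. edgeR called 0 genes, with 1123 at an unadjusted p under 0.05, limma voom called 0 and the DESeq2 Wald test 49. For ccr7 and tcf7 the interaction was 3.78 and 4.28 on the log2 scale (edgeR, adjusted p = 0.788 for both), so a difference between the backgrounds was not shown at this number of animals. In simulated counts of the same size, changes of 1.5 on the log2 scale were recovered in 16% of genes for il2rga mutants against wild type and changes of 3 in 69.4%. Small changes may therefore be missed between il2rga mutants and wild type. Recovery was not simulated for the interaction.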

How the data were processed

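Poly(A) RNA from the kidney of 12 single zebrafish, 3 in each of 4 groups, was sequenced as 50 bp read pairs per the labels' protocols. The authors deposited whole-number read counts for each Ensembl identifier, not normalized. STAR, Picard, featureCounts and GRCz10 are named in the submitters' processing notes. Their versions, the annotation, the strand setting and how duplicates were treated are not given in these sources, so reads of overlapping or antisense genes cannot be told apart. Gene symbols come from the reference tables and cover 26269 of 32105 identifiers, 4301 of which share a symbol with another.

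All 12 libraries entered 1 fit in edgeR 4.0.16 (R 4.3.3), with 1 mean per group, no covariate, TMM scaling and the quasi-likelihood test. The filter of edgeR kept 18370 genes and left out 13735, with totals over the 6 libraries of up to 1796 counts. A gene was called at a Benjamini-Hochberg adjusted p under 0.05. The biological coefficient of variation was 0.418. CPM were scaled by TMM, and a list's level is the mean log2 CPM of its tested members with a prior count of 2. P-values measure the spread between these animals only. Ratios of genes with 1 to 3 reads carry exact 95% intervals, and genes at 0 reads a floor of 3 counts over the group. The fit was tested on simulated counts. Replicates of a group differed by more than counting error, so none was merged. The alternatives were other scalings and filters, DESeq2 1.42.0, limma 3.58.1 voom, a replicate block, liver and proximal tubule covariates, and leaving out libraries.

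The members and lists were chosen with earlier results of these data known. Of 55 lists, 13 were written after the called genes were seen, and the very long list with falls of long genes known. Named genes were il2rga and prkdc, the 12 largest changes in each direction with at least 1 CPM on average and groups that did not overlap, up to 4 called genes of each list by smallest p or its most abundant gene, and the 6 most abundant called genes in each direction. Other genes in the text were chosen from the lists after their values were seen, and not all genes named by the rule are described. Fold change by protein length was not run, since no protein table was used here. The values of 1 gene that the rule names are not reported here.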

Additional observations from a re-analysis of the deposited data

How the results depend on the processing

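For il2rga mutants against wild type, 1066 genes were called, against 2400 by the DESeq2 Wald test, 2645 by limma voom, 616 with the proximal tubule covariate, 14 with the liver covariate, 22 without the 4 liver-rich libraries, and 160 to 1565 leaving out 1 library. Members called in the 42 earlier lists numbered 173, against 284, 264, 3 with the liver covariate and 6 without those 4 libraries, and 42 to 221 leaving out 1 library. For double against prkdc mutants, 2717 became 4176 by DESeq2, 0 with the liver covariate, 0 without the 4 libraries, 236 with only those groups in the fit, and 382 to 2946 leaving out 1 library. For il2rga against prkdc mutants, 1244 became 2661 by DESeq2, 3532 by voom, 793 with no filter, 14 with the liver covariate, 16 without the 4 libraries, 534 with only those groups, and 191 to 1664 leaving out 1 library. The interaction had 49 by DESeq2 and 0 to 1 leaving out 1 library. The cause of these differences was not tested.

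Same-numbered wild type and il2rga mutant libraries did not deviate together (correlations -0.093, -0.077 and -0.238). The labels do not say whether the numbers pair the animals, and with 3 animals a group these correlations cannot decide it. With the replicate block, 761, 1867 and 928 genes were called in the 3 comparisons.

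Of the 1066 genes, 3 changed sign, all without the 4 libraries, among them apoa4b.1 (-2.99). The genes named next were not among the 1066. actc1b had 1.96 by voom, 1.38 with the block, 0.15 with the liver covariate, -1.08 to 3.79 leaving out 1 library. c3a.2 had -4.08 without the 4 libraries. dnmt1 had 0.12 with the liver covariate, 0.31 without the 4 libraries, -0.22 to 0.11 leaving out 1 library. drosha had -0.0016 with no filter, -0.19 with the liver covariate, -0.18 with the proximal tubule covariate, -0.13 without the 4 libraries, -0.047 to 0.11 leaving out 1 library. ighm had -0.031 to 2.02 leaving out 1 library. il2rgb had -1.11 to 0.20 leaving out 1 library. il4r.1 had -0.0018 without the 4 libraries. jak3 had -0.30 to 0.035 leaving out 1 library. mt-co1 had -0.0054 by voom, -0.12 to 0.19 leaving out 1 library. pcna had -0.014 by voom, -0.12 with the proximal tubule covariate, -0.15 to 0.36 leaving out 1 library. prf1.6 had -0.35 with the liver covariate, -0.032 to 0.30 leaving out 1 library. slc4a1 ENSDARG00000012881 had 0.17 with the liver covariate, 0.0046 without the 4 libraries. xbp1 had -0.064 with the proximal tubule covariate, -0.17 to 0.27 leaving out 1 library. The cause was not tested. The median over all genes stayed between -0.039 and 0.068. With 3 animals a group and totals of 4756244 to 10311377 counts, small changes of genes with few reads were not detectable.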
